A study of Arabidopsis thaliana with 21 samples.

Results

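Plants that had been deacclimated for 12 h were compared with plants deacclimated for 6 h, and the comparison covered every probe set that could be tied to a single gene, 17404 of the 31329 probe sets tested, standing for 17185 genes. Each group held 3 arrays, 6 of the 21 in the series. Both groups were rosettes of Arabidopsis thaliana Columbia-0, raised under 8 h photoperiods for 3 weeks and under 16 h photoperiods for 1 more. Both had then been cold acclimated for 3 d at 4 °C, with 16 h of light a day at 90 μmol (photons per m2 and s), before the return to 20 °C by day and 18 °C by night at no less than 200 μmol, so that light and temperature rose together. The groups differed in the time since that shift. The other arrays came from cold acclimated plants (CA), plants deacclimated for 2, 4 or 24 h, and non-acclimated plants (NA) that were never moved to the cold. Each array stood for 10 whole rosettes combined into 1 sample, and the 3 replicates of a group were independent. The transfer took place in the morning, but no source used here gives the clock hour of each harvest, so time since transfer and time of day cannot be told apart in any difference below.

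Deacclimation is the loss of acquired freezing tolerance and the return to growth when a cold acclimated plant becomes warm. In a warm plant the clock runs through morning genes, which repress one another in turn, and evening genes, while phytochrome-interacting factors (PIFs), basic helix-loop-helix proteins, raise auxin synthesis and auxin-response genes and so drive cell elongation. In cold plants the clock genes swing less, C-repeat binding factors (CBFs) switch on COR genes, and flavonoids build up in the leaf.

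The 6 arrays were alike in their overall level, with medians from 8.14 to 8.28, and replicates correlated at 0.988 or more at 6 h and 0.992 or more at 12 h across probe sets. RCA, the Rubisco activase of green tissue, lay between 12.49 and 12.65 on the log2 scale on all 6 arrays. None of the 6 root markers with a named probe set was called by limma, 1 of them had an unadjusted p under 0.05, and their median change was -0.01. In most of the called genes replicate 1 of the 6 h group lay nearer to the 12 h mean than replicates 2 and 3, whatever the margin. Of the 49 genes called lower at 12 h it was the 6 h array nearest to the 12 h mean in 35, and of the 41 called higher in 34, against 36.3% of all named probe sets. Among the 12 h arrays, replicate 2 was nearest to the 6 h mean in 24 of the 41 called higher and 16 of the 49 called lower. That array was nearest in 34.7% of all named probe sets. Which genes were called was itself set by these arrays, so the counts are a description. Why 6 h replicate 1 lay nearest was not tested, and results are also given without that array. Since whole rosettes were measured, less RNA per cell and fewer cells of a type cannot be told apart.

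Between 6 h and 12 h of deacclimation 41 named probe sets rose (0.236% of those tested) and 50 fell (0.287%), each with a Benjamini-Hochberg adjusted p under 0.05 in limma and a change of more than 1 on the log2 scale, which is a 2-fold change. The 91 probe sets stood for 90 called genes, as judged by the probe set of highest mean, plus 1 gene whose dimmer probe set alone was called. The decreases were larger than the increases. Of the genes called lower, 16 fell by more than 2 on the log2 scale, whereas 5 of those called higher rose by more than 2. By adjusted p alone 91 were higher (0.523%) and 121 lower (0.695%), so that the change stayed under 2-fold in 50 and 71 of them. The 91 called in either direction were likewise 0.523% of those tested. The median change over all named probe sets was -0.03. In the 90 called genes no 6 h array overlapped with a 12 h array, a pattern shown by 7.75% of named probe sets upward and 14.1% downward. The calls drew on the spread over all 21 arrays. When the fit held the 6 arrays alone, no probe set was called and the lowest adjusted p of a named one was 0.0679, although all 91 kept an unadjusted p under 0.05 there, among 2660 named probe sets that did.

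**Figure D1:**
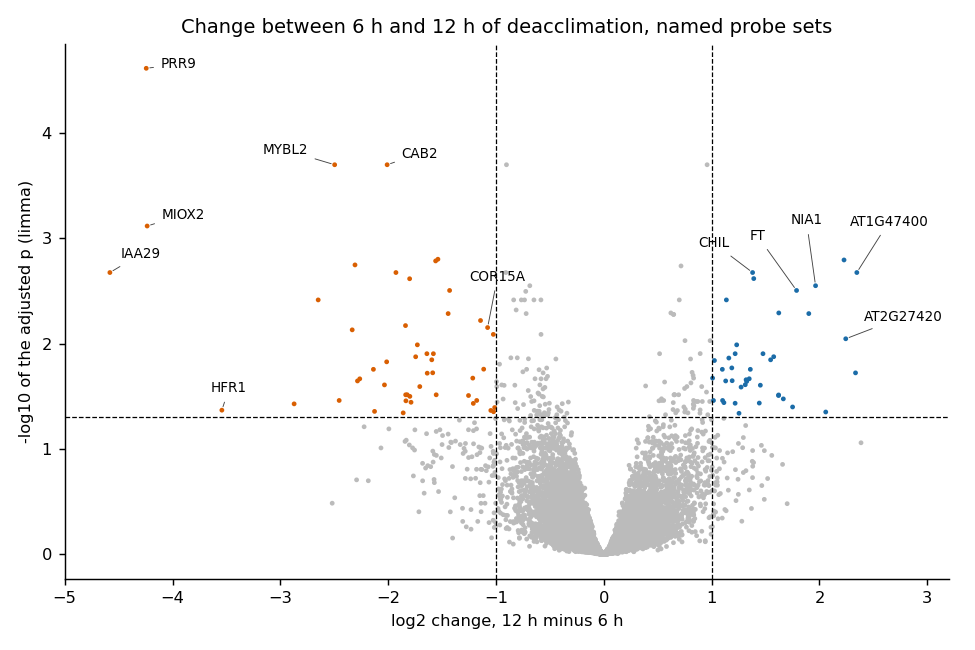
Change between 6 h and 12 h of deacclimation for the 17404 named probe sets. The x axis is the log2 change, 12 h minus 6 h, and the y axis is -log10 of the adjusted p; dashed lines mark a 2-fold change and an adjusted p of 0.05, with the 41 probe sets called higher in blue and the 50 called lower in orange.

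The count of calls moved with single arrays, though some genes were called whichever array was left out. Each omission reuses the remaining arrays that chose the genes, so a kept call describes stability and is not independent support. Without 6 h replicate 1 there were 105 probe sets higher and 95 lower, and these included all 41 of the former and 45 of the latter 50. Leaving out any 1 of the other 5 arrays gave 8 to 24 higher and 19 to 29 lower. The calls of 14 genes that fell stood in all 6 omissions, namely IAA29, PRR9, MIOX2, AT5G62280, MYBL2, CYP96A5, CAB2, IAA5, BEE1, AT3G55580, AT5G66590, EPR1, AT1G29430 and AT3G46370. So did those of 8 genes that rose, namely AT1G47400, AT1G47395, NIA1, AT5G59670, FT, AT5G05250, ABCC4 and CHIL. Names taken from the authors' list of changed transcripts belong to genes that had been picked on these same arrays. Of those 682 probe sets 4.4% were called, against 0.365% of the 16722 named by the platform table. Some counts are therefore also given for the latter. Among the called genes, PRR9, MIOX2, HFR1, MYBL2, CYP96A5, RTFL21, CAB2, IAA5, NAC004, AT1G62181, BEE1, SAUR63, OVA9, TOM7-2, EPR1, AT1G29430, GLYI4, FBH3, SNRK2-8, CYP711A1, NIA2, GA3OX2, PFA-DSP2, NAS4, 4CL3, ABCC4, FMO GS-OX2, FT and NIA1 are named from that list. With platform names alone, 29 probe sets were called higher (0.173%) and 32 lower (0.191%). Several groups of genes described below had no call from platform names. They were the morning clock, gibberellin, glucosinolate, nitrate and sulphate, and iron and copper lists, and the SAUR and NAC families.

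**Figure D2:**
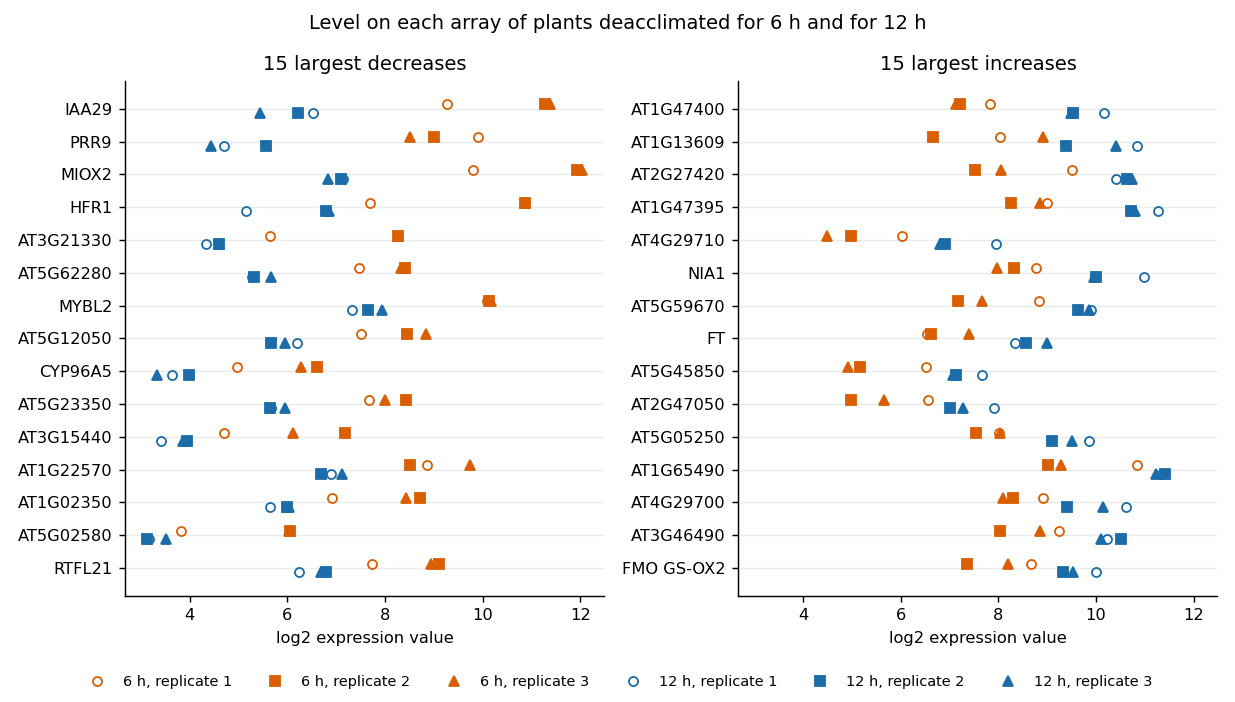
Log2 expression value (x axis) on each of the 6 arrays for the 15 genes with the largest decreases and the 15 with the largest increases. Orange symbols are plants deacclimated for 6 h, blue symbols plants deacclimated for 12 h, and open circles replicate 1; the groups do not overlap in any of the 30, and the open orange circle lies nearest to the blue symbols in most of them.

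Among the clock genes 2 fell, both of the morning group. PRR9, a pseudo-response regulator that represses CCA1 and LHY, lay at 9.90, 9.01 and 8.51 at 6 h and 4.71, 5.56 and 4.43 at 12 h (replicates 1 to 3, log2 expression values). The change was -4.24 ± 0.34 (SE), adjusted p = 2.44e-05, the smallest adjusted p of any named probe set, and every 12 h array was far below every 6 h array. Replicates 1 and 3 of PRR9 at 12 h lay below the lower quartile of their arrays. EPR1, also known as RVE7, a MYB-like relative of CCA1, gave 9.11, 8.83 and 9.09 at 6 h and 7.11, 8.03 and 7.56 at 12 h. It fell as well (-1.44 ± 0.23 (SE), adjusted p = 0.00519), from arrays that were close together at 6 h. Of the 7 measured morning genes these 2 fell and none rose. Their median change was -0.08, and 0.19 without 6 h replicate 1.

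The MYB-like regulators CCA1 and LHY, at the centre of the morning loop, were not called. CCA1 was at 7.84, 6.68 and 7.39 at 6 h and 6.26, 6.98 and 7.55 at 12 h (-0.37, adjusted p = 0.638), with overlapping groups. LHY was at 5.30, 5.59 and 6.04 at 6 h and 5.88, 6.63 and 6.25 at 12 h (0.61, adjusted p = 0.163), and again the groups overlapped. Over the course the mean of CCA1 was 12.13 in CA plants and 7.30, 6.93 and 12.16 after 6, 12 and 24 h, and that of LHY 11.46, 5.64, 6.25 and 11.91. Both thus stood at their low point from 6 h to 12 h, between high values in CA plants and at 24 h. The remaining morning genes ASG4, RVE5 and RVE6 changed by -0.08, 0.22 and 0.09, with adjusted p from 0.474 to 0.957. None of the 6 measured afternoon and evening genes was called in limma, 1 of them with an unadjusted p under 0.05, and their median was -0.09. GI, a clock protein that also promotes flowering, changed by -0.28, adjusted p = 0.601. FKF1, an F-box blue light receptor of flowering time, gave 7.96, 6.66 and 6.53 at 6 h and 6.45, 6.70 and 6.85 at 12 h (-0.38, adjusted p = 0.629). ELF3 of the evening complex gave 0.10, adjusted p = 0.836, and CDF5, a DOF repressor of flowering, -0.35, adjusted p = 0.608. COR27, a cold- and light-induced clock gene, showed 0.78, adjusted p = 0.253 and its relative COR28 0.27, adjusted p = 0.82. The mean of COR27 was 5.65 at 4 h and 5.66 at 24 h but 9.44 and 10.22 at the times between, so that both times compared here fell in a span of high values.

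Of the 15 measured genes of the list of PIFs and auxin response, 4 fell (IAA29, HFR1, IAA5 and GH3.3) and none rose, and the median was -0.48, beside -0.03 for all named probe sets. With platform names alone 2 of 9 fell. A filter that dropped probe sets below the median of the probe set means left 4 members, with 0 called. Their median was -0.11, with 2 above 0 and 2 below, beside -0.04 for all named probe sets that passed. IAA29, an AUX/IAA repressor of auxin signalling, lay at 9.27, 11.27 and 11.39 at 6 h and 6.52, 6.22 and 5.45 at 12 h. It fell by 4.58 ± 0.64 (SE, adjusted p = 0.00212), the largest change in the comparison, and without 6 h replicate 1 the change was -5.27 with adjusted p = 0.000412. IAA5, of the same family, gave 7.95, 8.70 and 8.87 at 6 h and 6.71, 6.49 and 6.52 at 12 h (-1.93 ± 0.27 (SE), adjusted p = 0.00212). In both genes the groups were well apart, with replicate 1 the lowest array at 6 h.

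HFR1, an atypical helix-loop-helix protein that holds PIFs in check, was at 7.69, 10.87 and 10.86 at 6 h and 5.15, 6.79 and 6.86 at 12 h. Its change was -3.54 ± 0.82 (SE), adjusted p = 0.0428, and it was called in 1 of the 6 omissions, that of 6 h replicate 1 (-4.60 with adjusted p = 0.00366), while the adjusted p reached 0.197 in the others. GH3.3, which conjugates auxin to amino acids, gave 8.22, 9.47 and 9.72 at 6 h and 7.27, 6.998 and 7.67 at 12 h (-1.82 ± 0.39 (SE), adjusted p = 0.0305), and also kept its call only without 6 h replicate 1 (-2.28 with adjusted p = 0.00416). YUC9, an auxin synthesis enzyme, had wide values at 6 h, with 5.49, 8.09 and 9.26 at 6 h and 5.53, 4.90 and 5.53 at 12 h and overlapping groups. Its change was -2.29 ± 0.81 (SE), adjusted p = 0.196, and without 6 h replicate 1 -3.35 with adjusted p = 0.0231. WES1, another auxin-conjugating enzyme, changed by -1.18, adjusted p = 0.0644, and by -1.51 with adjusted p = 0.0121 without that array. Neither YUC9 nor WES1 was called in any other omission, where adjusted p reached 0.553 and 0.268. HAT2, an auxin-induced homeobox gene, changed by -0.91, adjusted p = 0.199.

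PIF4 itself, the PIF most closely tied to warmth, was high at both times, with 11.22, 11.45 and 11.23 at 6 h and 10.71, 11.19 and 11.05 at 12 h (-0.31, adjusted p = 0.468). PIF1 changed by -0.21, adjusted p = 0.756 and PIF7 by 0.29, adjusted p = 0.664. None of the 3 measured PIFs was called. The PIF4 arrays at 12 h lay just below those at 6 h, and the groups of PIF1 and PIF7 overlapped. The other measured members, YUC2 (-0.48), IAA30 (-0.39), GH3.4 (-0.22), GH3.1 (-0.01) and AXR3 (0.09), had adjusted p from 0.46 to 0.994.

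BEE1, ARL and RTFL21, which are in none of the lists described above, fell too. BEE1, a brassinosteroid-induced helix-loop-helix gene, gave 9.51, 10.56 and 10.04 at 6 h and 8.25, 8.25 and 8.21 at 12 h (-1.80 ± 0.26 (SE), adjusted p = 0.00242). ARL, an ARGOS-like gene of cell expansion, changed by -1.80 ± 0.39 (SE), adjusted p = 0.0316, and RTFL21, a small peptide gene also called DVL3, by -2.01 ± 0.38 (SE), adjusted p = 0.0149. The groups did not overlap in these genes, though the calls of ARL and RTFL21 each stood in 2 of the 6 omissions (adjusted p up to 0.149 and 0.089). Among 16 measured SAUR genes, small auxin-induced transcripts, SAUR63 (-1.79 ± 0.40 (SE), adjusted p = 0.036) and AT1G29430, known as SAUR62 (-1.43 ± 0.21 (SE), adjusted p = 0.00313), fell and none rose. Their neighbours AT1G29450, AT1G29460 and AT1G29490 changed by -1.25, -1.33 and -1.77 with adjusted p of 0.12, 0.0906 and 0.0975. AT1G29490 had an adjusted p of 0.0442 with replicate number as a block, and AT1G29460 changed by -1.67 with adjusted p = 0.0306 without 6 h replicate 1. No other omission called AT1G29460. SAUR genes of this cluster are close copies, and probes may not keep them apart. SAUR63 was called in 1 omission of the 6 (adjusted p up to 0.161). Of the 16 SAUR genes 10 changed downward and 6 upward, and platform names alone left 5, with 0 called. The largest upward changes, AT2G28085 (1.38, adjusted p = 0.187) and AT1G20470 (0.97, adjusted p = 0.129), were not called. Without 6 h replicate 1 AT1G20470 changed by 1.26 with adjusted p = 0.0364, and no other omission called it.

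Cell wall genes gave no call. Of 20 measured expansins and xyloglucan endotransglucosylases, proteins that loosen and rebuild walls, none was called in limma, 4 had an unadjusted p under 0.05, all downward, and the median was -0.36. XTH33 had the largest change, with 5.91, 8.49 and 8.42 at 6 h and 4.75, 5.21 and 5.30 at 12 h, separate groups, and -2.52 ± 1.12 (SE), adjusted p = 0.326. XTH18 changed by -1.40, adjusted p = 0.699. MIOX2, myo-inositol oxygenase, which feeds glucuronic acid into wall polysaccharides, is not of that list and fell. It gave 9.81, 11.93 and 12.04 at 6 h and 7.13, 7.11 and 6.83 at 12 h, and the change of -4.24 ± 0.52 (SE), adjusted p = 0.000766 became -4.96 with adjusted p = 3.72e-05 without 6 h replicate 1. CYP96A5, a cytochrome P450, gave 4.98, 6.62 and 6.29 at 6 h and 3.64, 3.98 and 3.34 at 12 h (-2.31 ± 0.31 (SE), adjusted p = 0.00179), with values below the lower quartile of the array at 12 h.

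Hormone genes beyond auxin moved singly. GA3OX2, which makes active gibberellin, rose from 6.99, 6.46 and 6.93 at 6 h to 7.77, 7.78 and 8.53 at 12 h (1.23 ± 0.22 (SE), adjusted p = 0.0103). It was the only called gene of 11 measured gibberellin genes, and its relative GA3OX1 changed by -0.92, adjusted p = 0.353. Its call stood in 4 of the 6 omissions, with adjusted p up to 0.0661. CYP711A1, the MAX1 enzyme of strigolactone synthesis, rose by 1.16 (adjusted p = 0.0137). The brassinosteroid-inactivating P450 BAS1 showed -1.52, adjusted p = 0.0656 and the ethylene synthesis gene ACS4 -1.64, adjusted p = 0.0715, or 0.0406 with replicate number as a block. Both passed the threshold without 6 h replicate 1 (-1.79 with adjusted p = 0.0352, and -1.93 with adjusted p = 0.0402). Neither did in any other omission, where adjusted p reached 0.235 for BAS1 and 0.268 for ACS4.

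In light harvesting, 1 gene fell and 1 rose among 10 measured. CAB2, a chlorophyll-binding protein of the photosystem II antenna, gave 8.73, 9.38 and 9.08 at 6 h and 6.89, 7.36 and 6.91 at 12 h (-2.01 ± 0.21 (SE), adjusted p = 0.000201). All 12 h arrays were more than 1 below the lowest 6 h array. CAB2 has near-identical copies, which the probes may not keep apart. LHB1B1, another major antenna gene, had -0.99, adjusted p = 0.0255, just short of 2-fold. LHCB4.3, a minor antenna gene, rose (7.94, 7.14 and 7.96 at 6 h and 9.17, 8.28 and 8.93 at 12 h, 1.11 ± 0.25 (SE), adjusted p = 0.0363), with its call in 2 of the 6 omissions. The median of the list was -0.12. The 8 measured B-box and light signalling genes had no call in limma, with an unadjusted p under 0.05 for 1 upward and 1 downward. They were HYH, a partner of HY5 (1.01, adjusted p = 0.177, and 1.48 with adjusted p = 0.0152 without 6 h replicate 1), and BBX17 (-0.90, adjusted p = 0.22). In the other omissions HYH was not called, and its adjusted p reached 0.501.

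Among flavonoid genes a repressor fell and 2 genes of synthesis rose, and whether these changes were linked was not tested. MYBL2, a small MYB protein that represses anthocyanin synthesis, was at 10.10, 10.14 and 10.18 at 6 h and 7.33, 7.65 and 7.95 at 12 h. Its 6 h values were almost identical, and it fell by 2.50 ± 0.27 (SE, adjusted p = 0.000201). CHIL, a chalcone isomerase-like protein that aids flavonoid synthesis, rose (9.68, 8.86 and 9.19 at 6 h and 10.77, 10.44 and 10.65 at 12 h, 1.38 ± 0.19 (SE), adjusted p = 0.00212). 4CL3, a 4-coumarate:CoA ligase that feeds the same route, rose from 9.19, 8.41 and 8.88 to 10.28, 9.97 and 10.27 (1.35 ± 0.27 (SE), adjusted p = 0.0215), called in 1 of the 6 omissions. The flavonol glycosyltransferases UGT78D1 (0.74, adjusted p = 0.0399) and UGT78D2 (0.67, adjusted p = 0.0454) were higher by less than 2-fold. Of 12 measured genes 2 rose, 1 fell and 9 were not called. MYB12 (-0.45) and the anthocyanin synthesis gene DFR (-0.33) were lower without a call. UGT75C1 (0.11), UF3GT (0.20), 4CL1 (0.31), UGT78D3 (0.57) and AT5MAT (0.63) were higher without a call. The adjusted p of these genes ran from 0.346 to 0.908. The median of the list was 0.44, and it was 0.47 under either other scaling.

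Both nitrate reductase genes rose. NIA1, a nitrate reductase, was at 8.78, 8.32 and 7.96 at 6 h and 10.98, 10.01 and 9.96 at 12 h (1.96 ± 0.29 (SE), adjusted p = 0.00282), and NIA2, the other nitrate reductase gene, at 8.46, 7.70 and 7.91 at 6 h and 9.51, 9.08 and 9.13 at 12 h (1.22 ± 0.22 (SE), adjusted p = 0.0125). In both the groups were separate. NIA2 was called in 3 of the 6 omissions, with adjusted p up to 0.0741. The third measured gene of nitrate and sulphate assimilation, sulphite reductase SIR, changed by 0.07, adjusted p = 0.798. NIA1 and NIA2 are close relatives, and probes may not keep them fully apart.

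The flowering signal gene FT rose as well. FT, which encodes the mobile florigen made in leaf veins, gave 6.55, 6.62 and 7.39 at 6 h and 8.35, 8.56 and 9.001 at 12 h (1.79 ± 0.27 (SE), adjusted p = 0.00313), and its call stood in every omission. FBH3, a helix-loop-helix activator of CONSTANS, rose by 1.13 (adjusted p = 0.0226). It had 10.004, 9.22 and 8.86 at 6 h and 10.43, 10.51 and 10.53 at 12 h, so the 12 h arrays agreed closely while 6 h replicate 1 lay nearest to them, and its call stood in 1 omission.

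Of 6 measured iron and copper genes 1 rose and none fell, with a median of 0.38. The gene that rose, NAS4, which makes the metal chelator nicotianamine, gave 8.62, 8.22 and 7.40 at 6 h and 9.63, 9.29 and 9.28 at 12 h (1.32 ± 0.27 (SE), adjusted p = 0.022), called in 1 of the 6 omissions. PYE, a helix-loop-helix regulator of iron deficiency genes, was higher by less than 2-fold (0.83, adjusted p = 0.0411). FMO GS-OX2, which oxidises the side chain of aliphatic glucosinolates, rose from 8.67, 7.36 and 8.19 to 10.001, 9.33 and 9.53 (1.55 ± 0.29 (SE), adjusted p = 0.0142). It was the only call among 10 measured glucosinolate genes, and its relative FMO GS-OX4 showed 0.91, adjusted p = 0.132, and 1.18 with adjusted p = 0.0433 without 6 h replicate 1. No other omission called FMO GS-OX4. ABCC4, an ABC transporter of subfamily C, rose (8.66, 8.16 and 8.32 at 6 h and 9.67, 9.73 and 9.91 at 12 h, 1.39 ± 0.20 (SE), adjusted p = 0.00242).

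The largest increases were in genes for which the sources used here give a locus and little else. AT1G47400 was at 7.82, 7.21 and 7.13 at 6 h and 10.17, 9.54 and 9.49 at 12 h (2.35 ± 0.33 (SE), adjusted p = 0.00212), and its neighbour AT1G47395 at 8.9995, 8.26 and 8.86 at 6 h and 11.28, 10.72 and 10.80 at 12 h (2.23 ± 0.29 (SE), adjusted p = 0.00161). Both were called in every omission. AT2G27420, annotated as a putative cysteine proteinase, gave 9.51, 7.51 and 8.05 at 6 h and 10.42, 10.65 and 10.74 at 12 h (2.24 ± 0.39 (SE), adjusted p = 0.00899), with 6 h replicate 1 much the highest of its group. AT1G13609 changed by 2.33 ± 0.46 (SE), adjusted p = 0.0189, AT4G29710 by 2.06 ± 0.48 (SE), adjusted p = 0.0445 and AT5G59670 by 1.90 ± 0.31 (SE), adjusted p = 0.00519. The others of the 15 largest increases, AT5G45850, AT2G47050, AT5G05250, AT1G65490, AT4G29700 and AT3G46490, rose by 1.58 to 1.75. Among the decreases, AT3G21330, annotated as a helix-loop-helix factor, gave 5.64, 8.26 and 8.26 at 6 h and 4.34, 4.60 and 4.60 at 12 h (-2.87 ± 0.65 (SE), adjusted p = 0.0373), and was called only when 6 h replicate 1 was left out (-3.75 with adjusted p = 0.0025). The 12 h values of AT3G21330 lay below the lower quartile of their arrays. AT5G62280 gave 7.47, 8.42 and 8.32 at 6 h and 5.27, 5.32 and 5.67 at 12 h (-2.65 ± 0.41 (SE), adjusted p = 0.00385) and was called in every omission. AT1G22570, a transporter of the proton-dependent oligopeptide family, fell by 2.14 (adjusted p = 0.0175). The remaining AT5G12050, AT5G23350, AT3G15440, AT1G02350 and AT5G02580 fell by 2.03 to 2.33.

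The remaining called genes had smaller changes and varied roles. Among those that fell were OVA9, a glutamine-tRNA ligase (-1.73, adjusted p = 0.0103), TOM7-2, a subunit of the mitochondrial import pore (-1.60, adjusted p = 0.0142), AT1G30820, a putative CTP synthase (-1.71, adjusted p = 0.0255), and THI2.2, an antimicrobial thionin (-1.22, adjusted p = 0.0212). NAC004, a NAC factor, fell by 1.86 (adjusted p = 0.0454) and was the only called member of 7 measured NAC genes. AT3G55580 gave 6.42, 5.74 and 5.95 at 6 h and 4.46, 4.65 and 4.32 at 12 h (-1.56 ± 0.21 (SE), adjusted p = 0.00164), AT5G66590 gave 7.99, 8.50 and 8.20 at 6 h and 6.44, 6.87 and 6.75 at 12 h (-1.54 ± 0.20 (SE), adjusted p = 0.00158) and AT3G46370 gave 9.38, 9.24 and 9.07 at 6 h and 8.37, 8.03 and 7.85 at 12 h (-1.14 ± 0.19 (SE), adjusted p = 0.00604). All 3 had compact, separate groups and kept their call in every omission, but the 12 h values of AT3G55580 lay below the lower quartile of their arrays. Among those that rose were SNRK2-8, a protein kinase of osmotic stress signalling (9.70, 9.05 and 9.34 at 6 h and 10.55, 10.37 and 10.59 at 12 h, 1.14 ± 0.18 (SE), adjusted p = 0.00385), AT1G78020, annotated as senescence-associated (1.48, adjusted p = 0.0125), AT1G08230, an amino acid transporter (1.03, adjusted p = 0.0145), and AT1G29600, a zinc finger protein (1.32, adjusted p = 0.0228). The called genes not named elsewhere fell by 1.01 (AT3G01570) to 1.84 (AT5G02540) or rose by 1.01 (AAE18) to 1.45 (AT3G19030).

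The 90 called genes included neighbours. In the order of protein-coding genes of the TAIR10.1 annotation, 4 pairs of adjacent genes were both called, and in all 4 pairs both genes moved in the same direction, among 11156 adjacent pairs with both genes named. They were AT1G47395 with AT1G47400 and AT4G29700 with AT4G29710, which rose, and HFR1 with AT1G02350 and AT5G66580 with AT5G66590, which fell. AT1G24090 was the gene whose probe sets differed in their call. Its brighter probe set changed by -0.64 (adjusted p = 0.086), and the dimmer one by -2.45 (adjusted p = 0.0346) with 12 h values of 5.43, 4.58 and 2.59, which lay far from one another.

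Of 10 measured CBF and cold-regulated genes 1 fell and none rose. The list holds 35 genes, and no CBF gene itself was among the 10 with a named probe set. COR15A, which protects chloroplast membranes during freezing, gave 12.15, 11.58 and 11.92 at 6 h and 11.20, 10.59 and 10.62 at 12 h (-1.08 ± 0.18 (SE), adjusted p = 0.00704), and without 6 h replicate 1 the change was -0.95 with adjusted p = 0.019, under 2-fold. Its adjusted p was no more than 0.0493 in any omission, and its call stood in 3 of the 6, since the change stayed under 2-fold in the others. COR15B is a close relative, and probes may not keep the 2 apart. LTI30, a dehydrin, gave 7.56, 7.96 and 7.34 at 6 h and 7.43, 5.91 and 6.07 at 12 h (-1.15, adjusted p = 0.277) with overlapping groups. COR15B changed by -0.80, adjusted p = 0.098, KIN1 by -0.56, adjusted p = 0.589 and KIN2 by -0.31, adjusted p = 0.606. COR413IM1 (-0.26), the dehydrin gene COR47 (-0.06), AT3G17520 (0.08) and the zinc finger gene STZ (0.35) had adjusted p from 0.666 to 0.949. GRP7, an RNA-binding protein gene, gave 12.56, 12.44 and 12.36 at 6 h and 12.09, 12.08 and 12.05 at 12 h (-0.38, adjusted p = 0.12), with separate groups. The list's median was -0.34. The mean of LTI30 was 12.42 in CA plants, 7.62 at 6 h and 6.47 at 12 h, so most of its course lay before 6 h.

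In several lists most or all members were displaced the same way without a call. All 29 measured ribosome biogenesis genes were lower at 12 h, against 55.3% of named probe sets, with a median of -0.29. None passed the 2-fold threshold, 14 had an unadjusted p under 0.05, and AT3G10530 alone had an adjusted p under 0.05 (-0.70, adjusted p = 0.0139, with 8.67, 8.52 and 8.54 at 6 h and 7.88, 7.94 and 7.80 at 12 h). All 29 stayed below 0 under the 2 other scalings, and 28 or 29 did with any 1 of the 6 arrays left out. All 13 measured low-energy genes, which rise when sugar runs short, were lower too, with a median of -0.79, the lowest of any list with 5 or more measured genes. None was called in limma, and 7 had an unadjusted p under 0.05, or 5 under either other scaling and 3 to 8 with 1 array left out. AT3G15450 gave 11.73, 12.69 and 12.38 at 6 h and 10.69, 10.57 and 10.13 at 12 h (-1.80, adjusted p = 0.0915, and 0.0393 with replicate number as a block). The trehalose phosphate synthase-like gene TPS11 gave 10.35, 11.93 and 11.61 at 6 h and 9.52, 9.94 and 9.72 at 12 h (-1.57, adjusted p = 0.113, and -2.05 with adjusted p = 0.0301 without 6 h replicate 1). In the other omissions TPS11 was not called, and its adjusted p reached 0.364. For comparison, 8.03% of named probe sets had an unadjusted p under 0.05 downward and 5.38% upward.

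**Figure D3:**
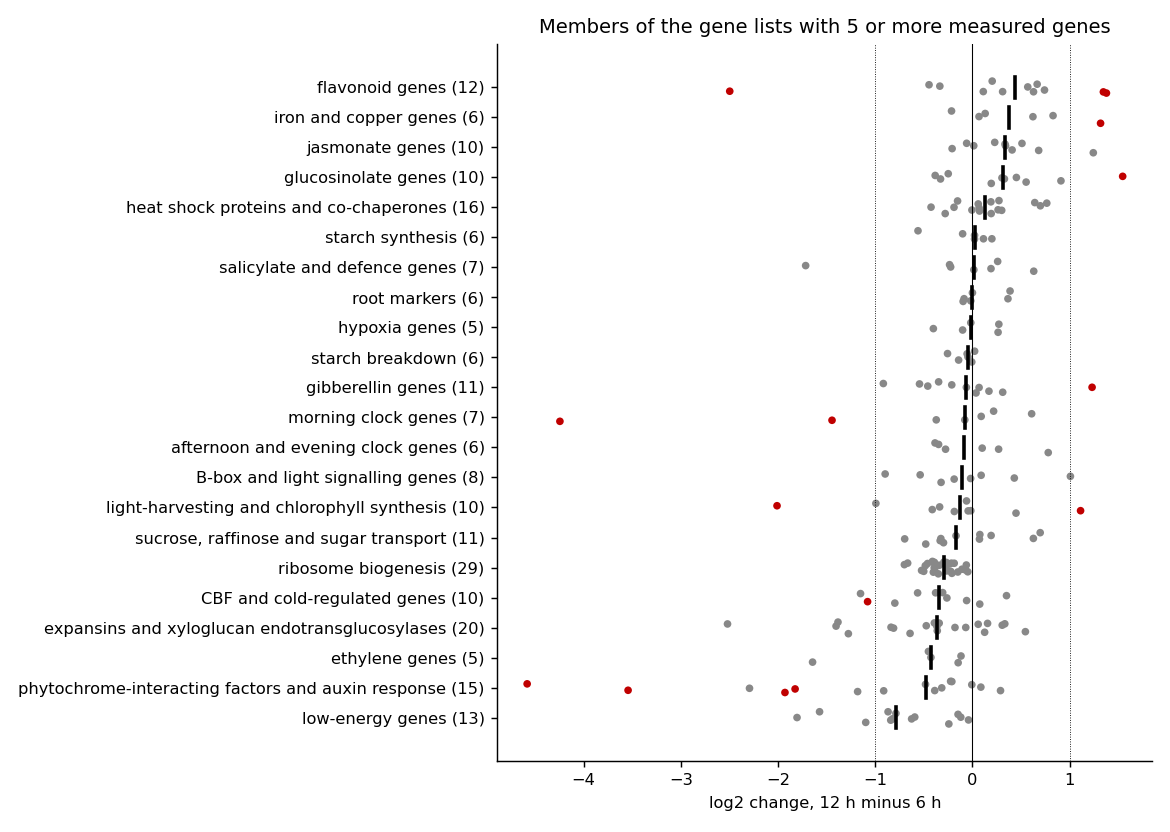
Log2 change, 12 h minus 6 h (x axis), of each measured member of the lists with 5 or more measured genes (number in brackets). Red points were called, grey points were not, black bars are list medians and dotted lines mark a 2-fold change; low-energy genes have the lowest median (-0.79) and flavonoid genes the highest (0.44).

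Other lists showed little. The 16 measured heat shock proteins and co-chaperones had a median of 0.13 with no call in limma and none with an unadjusted p under 0.05, and HSFA2, a heat shock factor, gave 6.91, 5.59 and 5.97 at 6 h and 5.03, 7.32 and 5.90 at 12 h, with overlapping groups. Starch breakdown and starch synthesis genes, 6 of each, had medians of -0.05 and 0.02 and no unadjusted p under 0.05. The 11 genes of sucrose, raffinose and sugar transport had no call, with 2 in each direction at an unadjusted p under 0.05, and ATSPS4F, a sucrose phosphate synthase, gave 0.70, adjusted p = 0.101. Jasmonate genes (10 measured, median 0.34, 1 with an unadjusted p under 0.05) and salicylate and defence genes (7 measured, median 0.02, none with an unadjusted p under 0.05) had no call in limma either. TAT3, a jasmonate-induced aminotransferase, changed by 1.24, adjusted p = 0.193 and the defensin PDF1.2 by -1.72, adjusted p = 0.393. Families put together from gene symbols gave 1 call upward and 2 downward among 39 cytochrome P450s (CYP711A1, CYP96A5 and CYP71B26), and none among 56 UDP-glycosyltransferases.

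Over the whole course the called genes fell into a few shapes, given here as means without a test because the 6 h and 12 h arrays are those that chose them. Of the 49 genes that fell, 27 stood at 6 h more than 1 above their CA mean, and 22 had their highest mean of the 7 groups at 6 h. IAA29 went from 7.27 ± 0.25 (SD, n = 3) in CA plants to 10.64 ± 1.19 at 6 h, 6.06 ± 0.55 at 12 h and 6.29 ± 1.25 at 24 h, with 5.32 ± 0.60 in NA plants. MIOX2 followed the same path from 7.99 in CA plants to 11.26, 7.02 and 7.19 at 6, 12 and 24 h. Their high means were confined to 2 h to 6 h of the course. At 24 h 38 of the 49 lay within 1 of their 12 h mean and 10 were more than 1 higher. PRR9 had the largest such difference, from 4.90 ± 0.59 at 12 h to 11.31 ± 0.32 at 24 h, beside 11.94 ± 0.06 in CA plants, and the 12 h mean was the lowest of the 7 groups. CAB2 (7.05 to 9.62), AT3G55580 (4.48 to 8.11) and AT1G62181 (4.66 to 7.29) were also higher at 24 h than at 12 h, beside means of 11.10, 11.54 and 8.24 in CA plants. RTFL21 alone was lower at 24 h than at 12 h by more than 1.

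Of the 41 genes that rose, 21 had their lowest mean of the 7 groups at 6 h, and 14 were then more than 1 below their CA mean. NIA1 went from 11.25 ± 0.28 in CA plants down to 8.35 ± 0.41 at 6 h and up to 10.32 ± 0.58 at 12 h and 11.67 ± 0.43 at 24 h. CHIL dipped from 11.78 to 9.24 and came back to 10.62, and FT from 8.72 to 6.85 and back to 8.64. In these 3 genes the 6 h mean was a low point and the 12 h mean lay nearer to that of CA plants. Another 6 stood more than 1 above their CA mean at 6 h, such as AT5G05250, which went from 5.31 to 7.87 and 9.49. At 12 h 33 of the 41 were within 1 of their NA mean, compared with 9 at 6 h. Of the 49 that fell, 37 were within 1 of NA at 12 h and 17 at 6 h. These genes were chosen for a change between 6 h and 12 h, so the counts are a description. The same shares over all named probe sets were not computed.

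**Figure D4:**
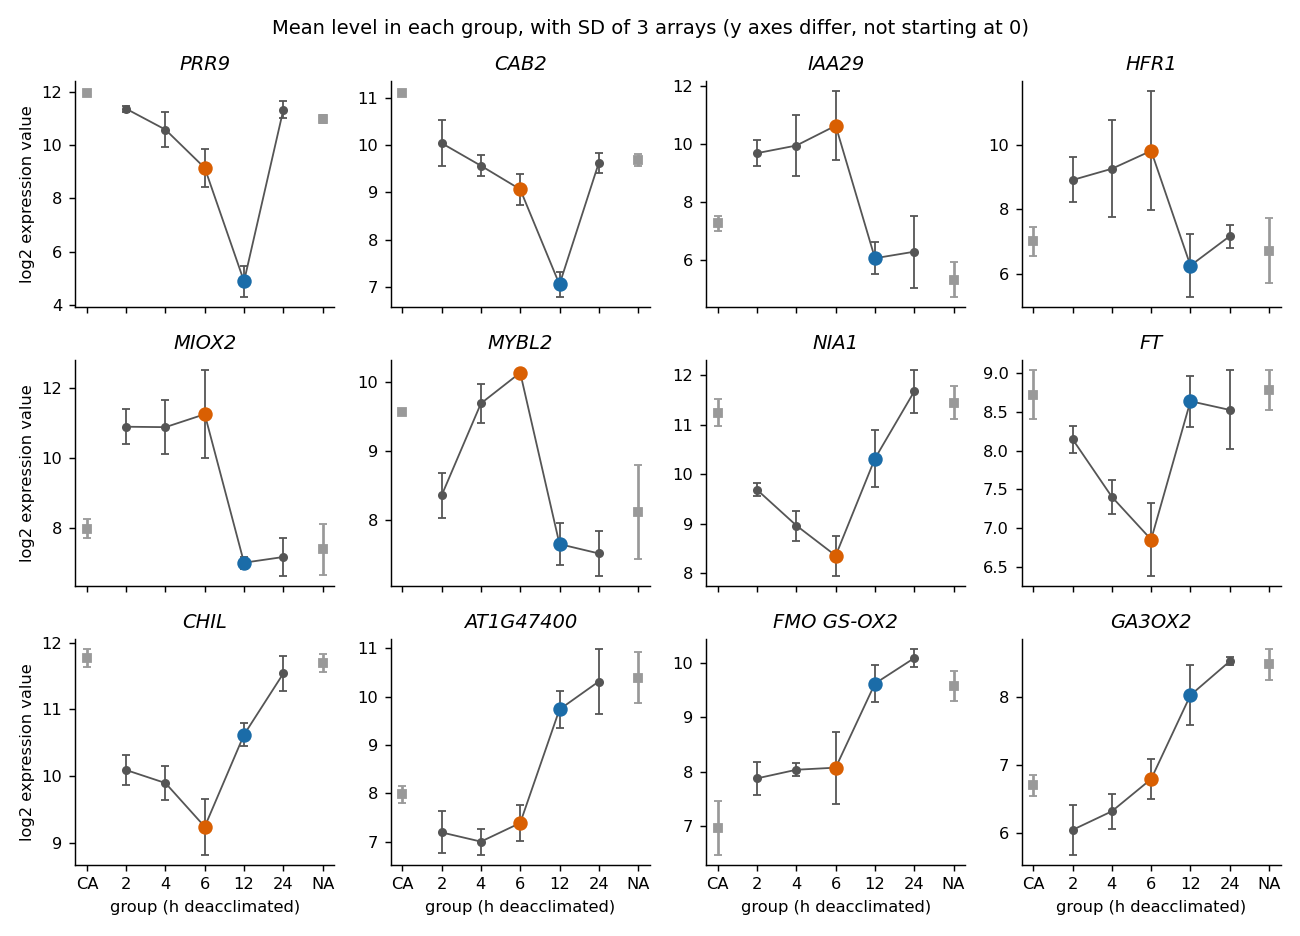
Mean log2 expression value (y axis, scaled separately for each gene) with the SD of 3 arrays in CA plants, after 2 to 24 h of deacclimation and in NA plants (x axis, evenly spaced groups). Orange marks 6 h and blue 12 h; PRR9 and CAB2 are lowest at 12 h and higher again at 24 h, IAA29 and MIOX2 peak before 12 h, and NIA1, FT and CHIL are lowest at 6 h.

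The direction of change was also set beside contrasts that use none of these 6 arrays, although the fit shares its estimate of the spread. Of the 41 probe sets higher at 12 h, 20 (48.8%) were also higher in NA than in CA plants, 1 was lower and 20 were not called, where 5.3% of all named probe sets were higher and 4.3% lower. Those 20 amounted to 2.17% of all 922 that were higher in NA plants. With platform names alone 16 of 29 (55.2%) were higher in NA plants, against 4.54%. AT5G05250 (3.97, NA minus CA), AT1G13609 (3.92) and AT2G27420 (3.35) had the largest differences. FT (0.06), AT5G59670 (0.06) and CHIL (-0.08) had small differences that were not called. AT2G23910, annotated as related to cinnamoyl-CoA reductase, was the gene that went the other way (-1.13).

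Of the 50 probe sets lower at 12 h, 12 (24%) were also lower in NA than in CA plants, 2 were higher and 36 were not called. Those 12 amounted to 1.6% of all 749 that were lower in NA plants. With platform names alone the share was 7 of 32 (21.9%), against 3.56%. Among them were AT3G55580 (-3.51), AT5G62280 (-2.73), IAA29 (-1.95), COR15A (-1.63) and MYBL2 (-1.45). The genes IAA5 (-0.03), GH3.3 (0.05) and HFR1 (-0.29) were not called between CA and NA plants. Between 2 h and 4 h, 2 of the 50 rose (MYBL2 and RTFL21), where 0.132% of named probe sets did. Both are named from the authors' list, and with platform names alone 0 of 32 rose, against 0.108%.

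**Figure D5:**
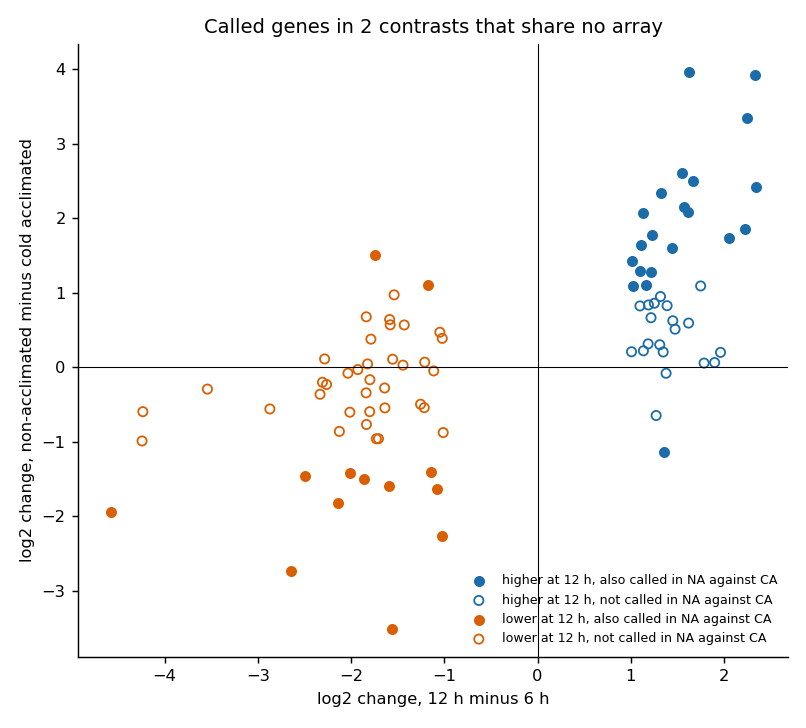
Log2 change between 6 h and 12 h (x axis) against the log2 difference of NA minus CA plants (y axis) for the 90 called genes, from contrasts with no array in common. Blue points rose and orange points fell between 6 h and 12 h, and filled points were also called between NA and CA plants; most blue points lie above 0, while the orange points lie on both sides of it.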

How the data were processed

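The authors hybridised RNA from pooled rosettes to Affymetrix Arabidopsis Gene 1.0 ST arrays and deposited log2 expression values per probe set, normalised by RMA in RobiNA (background correction, quantile normalisation and summary by probe set; version and annotation build not given in the sources used here). Quantile normalisation removes any overall shift between arrays. The values were used as deposited. Of 38408 probe sets, a block of 7079 at the head of the table, none with a gene, was set apart. Names came from the platform table (16722 probe sets with 1 gene) and, where it lists none, from the authors' list of changed transcripts (682), held here in part. Probe sets with several genes (759) and unnamed ones (13166) were tested but not reported. Loci and symbols were updated through RefSeq (TAIR10.1).

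Differences were fitted with limma 3.58.1 in R 4.3.3 (lmFit, eBayes) over all 21 arrays, with 14 residual and 2.69 prior degrees of freedom, and adjusted by Benjamini-Hochberg over the 31329 probe sets tested. The fit was tested on simulated data. The number of arrays, 3 per group, limits the precision. Replicate numbers come from the sample titles. Deviations of same-numbered 6 h and 12 h arrays from their group means correlated at 0.215, 0.181 and 0.236. Those of differently numbered arrays correlated at -0.204 to -0.0228, which is not separate evidence, since the deviations within a group cancel. The consensus correlation of the random block was 0.0801. The numbers may thus pair the samples, but the reported fit held group means alone, without the replicate number. Fits with that number as a block are alternatives and are given where they changed a call. Alternatives were the whole table, the 6 arrays alone, another scaling, a filter on low values, another moderation of the variance, other fold thresholds, platform names alone and omission of each array.

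Named genes were the 15 largest called changes in each direction without overlap of arrays (a gene with several probe sets being represented by that of highest mean), every measured member of the clock, PIF and auxin, and CBF and cold lists, up to 5 called members of other lists in their main direction and 3 in the other, and otherwise the 2 with the largest change. Genes named outside this rule were chosen after their values were seen. The 32 lists hold 761 genes, 248 of them measured by a named probe set. Gene families were formed from symbols after the values were seen. Members and lists were chosen with earlier results of these data known. Lists were not tested, and promoter sequences were not analysed here.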

Additional observations from a re-analysis of the deposited data

How the results depend on the processing

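Every called gene kept its direction under every alternative run, while the count of calls moved. The 6 h and 12 h arrays did not overlap in any of the 90 called genes, so leaving out 1 array could not reverse a direction. Fits that kept these 6 arrays unscaled return the same change whatever the model. The kept direction is therefore a description and not support. With the 6 arrays alone 0 probe sets rose and 0 fell. Leaving out 1 array gave 8 to 105 higher and 19 to 95 lower, the highest of both without 6 h replicate 1. Adjusted p alone gave 91 higher and 121 lower, treat against a 1.2-fold change 11 and 17, and platform names alone 32 lower. A filter at the median of the probe set means left 25 lower, with 18 of the 50 passing it and all 18 still called. The fit of 6 arrays and the omissions leave fewer arrays and so fewer degrees of freedom; why leaving out 6 h replicate 1 raised the counts was not tested. Keeping the unnamed block gave 33 and 38, centring on medians 49 and 46, cyclic loess 51 and 50, and eBayes with trend and robust 44 and 64. With the replicate number as a block the fit called 51 higher and 68 lower, and as a random effect 45 and 65. The block ended the call of GLYI4 (adjusted p = 0.0511) and, among list members, added AT3G15450, ACS4 and AT1G29490, and as a random effect ACS4 and WES1 (adjusted p = 0.0493). It changed no other call of a called gene or list member, while the counts above include newly called probe sets outside the lists. Centring ended the calls of AT3G05900, AT3G49320, GLYI4 and AT3G01570, and cyclic loess those of AT3G05900 and AT3G49320. The median change of all probe sets was -0.0363 as deposited, -0.00881 after median centring and 0.000639 after cyclic loess. The number of arrays, 3 per group, limits which changes near 2-fold can be called.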
